A study of Rattus norvegicus with 16 samples.

Results

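The comparison set the livers of all chemically exposed rat pups together against the livers of unexposed pups and asked which transcripts moved in one direction under all 3 exposures. Its members were the 12 arrays titled for the groups M, 0.5M and AhR, each group with equal weight, of 16 arrays in all. The remaining 4 arrays were those of the control group C. All pups were male Sprague-Dawley rats of 21 days, stayed with their birth mothers, and were exposed through the dams during gestation and lactation. Dams of M pups were given organochlorine pesticides, polychlorinated biphenyls and methyl mercury as 1 mixture in corn oil at 1.0 mg/kg/day, and dams of 0.5M pups the same mixture at 0.5 mg/kg/day. Dams of AhR pups were given a mixture of aryl hydrocarbon receptor agonists (non-ortho polychlorinated biphenyls, dioxins and furans) at 1.8 ng/kg/day in dioxin equivalents. Dams of C pups were given corn oil alone. Each array held liver RNA pooled from 2 pups of a group, so 8 pups stood behind each group, and the litters of the pups are not given. Since it was the dams that were dosed, shared litters among the arrays of a group would make the p-values below too small. The agents and doses of the exposures differ, so the joint value is an average over unlike treatments.

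The aryl hydrocarbon receptor is a transcription factor that binds dioxins and flat polychlorinated biphenyls, enters the nucleus and turns on genes such as Cyp1a1 and Cyp1a2, whose products oxidise foreign compounds. A second system, built on the nuclear receptors CAR and PXR, answers to phenobarbital-like compounds, among them bulky polychlorinated biphenyls and many pesticides, and raises Cyp2b and Cyp3a genes. Liver is the main site of both, and another factor, NRF2, raises glutathione and antioxidant enzymes when reactive compounds appear.

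The liver RNA carried the Cy5 dye and a universal rat reference RNA, made from rat cell lines per the labels, carried Cy3 on every array. Each value is the log2 ratio of liver to reference, so that only differences between groups for the same transcript can be read, not levels between genes. Between 7082 and 13824 of 30367 probes stood well above background in Cy5 on the 8 arrays of slide 1, and between 13006 and 15686 on the 8 arrays of slide 2. Each slide held 2 arrays of each group. Of 11 hepatocyte markers, 9 had a median Cy5 signal above the 90th percentile of an array's probes, and also 9 in Cy3, so the reference was as bright as liver for these genes and their brightness does not set the liver channel apart. Skeletal muscle transcripts were high on M 2 and 0.5M 4, where 11 of 11 measured markers lay above all other arrays. Pancreas transcripts were high on M 1 and AhR 2 (4 of 6 markers), and fat transcripts on C 2 (3 of 5 markers). The 8 transcripts past the threshold and the marker lists of these tissues are given with and without these 5 arrays.

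Taken over the 3 exposures, few liver transcripts rose, 3 of them in the list of aryl hydrocarbon receptor targets and 2 in that of CAR and PXR targets. Of 13146 transcripts tested, 8 (0.0609%) were higher in the exposed groups together than in C, and 0 were lower, by limma with Benjamini-Hochberg adjustment at a threshold of 0.05. The 8 were Cyp1a1, Cyp2b2, Ceacam4, Cyp1a2, Cyp2c6v1, Ugt1a6, Cyb5a and XR_086356, a transcript without a gene symbol in the table used. At an unadjusted p under 0.05, 347 transcripts were higher and 453 lower, 800 in all (6.09%), where 657.3 would be expected if nothing differed. Differences of all 8 from C were ordered alike, with M highest and 0.5M above AhR in 8 of 8. A high M value helps a transcript pass the joint test, and without M only Cyp1a1 passed. The order is thus partly set by the selection, and it was not counted over all transcripts. For 7 of the 8, all 3 groups lay above C. The same sign in all 3 groups, which share the C arrays, was found for 46.2% of all transcripts.

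**Figure D1:**
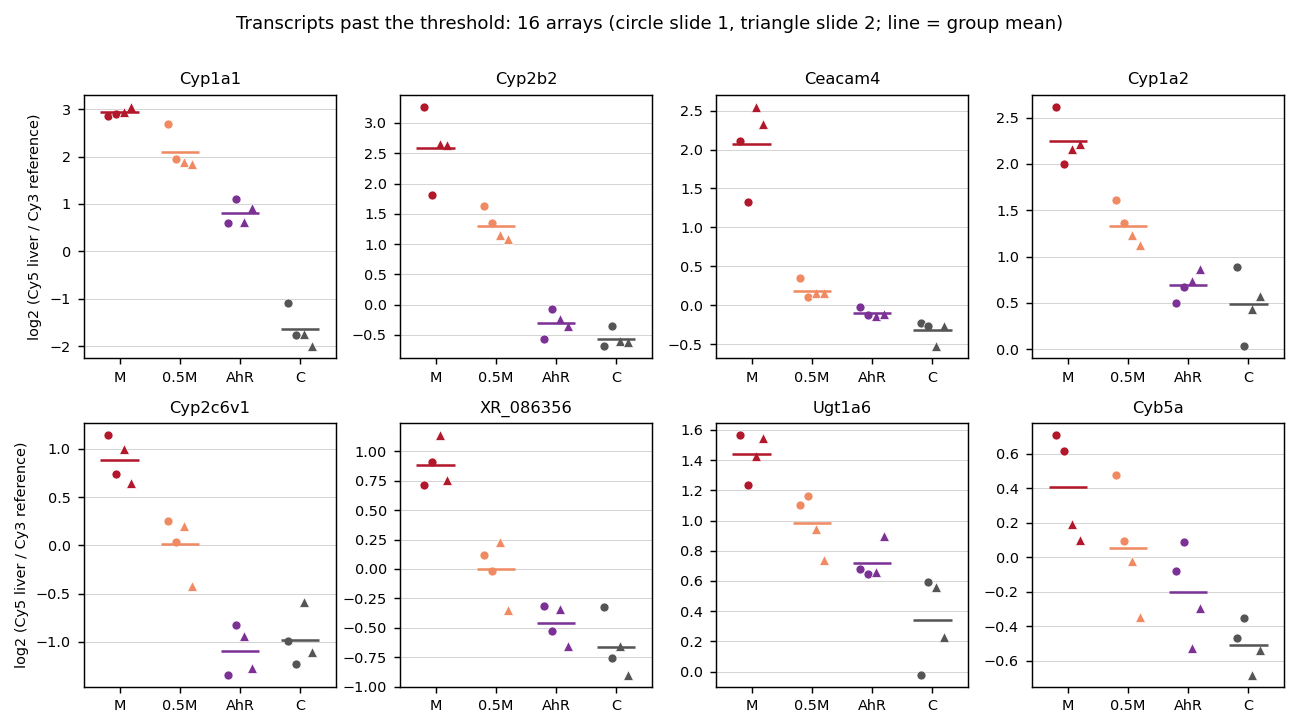
Log2 ratio of liver (Cy5) to reference (Cy3) of the 8 transcripts past the threshold, 1 point per array and a line at each group's mean, for M, 0.5M, AhR and C (4 arrays each; circles slide 1, triangles slide 2). Cyp1a1 stands above C on every exposed array, while AhR and C arrays overlap for Cyp2b2, Cyp1a2, Cyp2c6v1, XR_086356 and Cyb5a.

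Cyp1a1 (NM_012540), the P450 gene most closely governed by the aryl hydrocarbon receptor, was the only transcript past the threshold in each of the 3 groups by itself. Its log2 ratios were 2.86, 2.89, 2.94 and 3.05 in M, and 2.69, 1.96, 1.88 and 1.85 in 0.5M. They were 0.60, 1.12, 0.61 and 0.92 in AhR, against -1.08, -1.76, -1.74 and -2.01 in C. The 4 groups did not overlap, and every exposed array lay above the highest C array. The exposed groups averaged 3.59 ± 0.15 (SE) above C on the log2 scale, with a 95% interval of 3.28 to 3.91 on that scale, a 12.1-fold rise (adjusted p = 1.20e-09, limma). The differences from C were 4.58 in M, 3.74 in 0.5M and 2.46 in AhR, and they differed among the 3 groups by limma's moderated F-test (adjusted p = 8.67e-05). M exceeded AhR by 2.12 ± 0.18 (adjusted p = 1.95e-05) and 0.5M exceeded AhR by 1.28 ± 0.18 (adjusted p = 0.0227). Between M and 0.5M the difference was 0.84 ± 0.18, with a 95% interval of 0.45 to 1.23, which did not pass over all transcripts (adjusted p = 0.270). Within the slides the rise was 3.44 on slide 1 and 3.75 on slide 2.

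Past the threshold against C by itself were 42 transcripts in M (0.319%), 2 in 0.5M (0.0152%) and 1 in AhR (0.00761%). These 3 comparisons share the C arrays. The count past the threshold in all 3 with one direction was 1 (0.00761%), which is Cyp1a1, with adjusted p of 6.52e-10 in M, 1.41e-08 in 0.5M and 7.26e-06 in AhR.

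Cyp1a2 and Ugt1a6 are other classical targets of the aryl hydrocarbon receptor. Cyp1a2 (NM_012541), a P450 of aromatic amine oxidation, had log2 ratios of 2.61, 1.99, 2.16 and 2.21 in M, and 1.61, 1.36, 1.23 and 1.13 in 0.5M. In AhR they were 0.50, 0.67, 0.74 and 0.86, against 0.89, 0.03, 0.44 and 0.58 in C. M and 0.5M lay above C without overlap, while the AhR arrays lay inside the range of C. The joint difference was 0.94 ± 0.14 (1.92-fold, adjusted p = 9.11e-03, limma), made of 1.76 in M, 0.85 in 0.5M and 0.21 in AhR, which differed from each other (F-test of limma, adjusted p = 6.47e-04). It was 1.00 on slide 1 and 0.88 on slide 2. The call did not hold without C 2 (adjusted p = 0.0620), C 3 (0.0569) or C 4 (0.0551). Nor did it hold with trended and robust eBayes in limma (0.0667).

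Ugt1a6 (NM_001039691), an enzyme that joins glucuronic acid to phenols, had log2 ratios of 1.56, 1.23, 1.43 and 1.55 in M, and 1.10, 1.16, 0.94 and 0.74 in 0.5M. The AhR arrays had 0.68, 0.65, 0.66 and 0.90, against -0.02, 0.59, 0.56 and 0.23 in C. All 12 exposed arrays lay above the highest C array, C 2, the AhR arrays by the smallest margin. The exposed groups averaged 0.71 ± 0.11 above C (1.64-fold, adjusted p = 0.0154, limma), with 1.10 in M, 0.65 in 0.5M and 0.38 in AhR. The F-test among the 3 groups did not pass (adjusted p = 0.106). The call did not hold without C 1 (adjusted p = 0.1004) or C 4 (0.171), nor without the 2 arrays with pancreas transcripts, M 1 and AhR 2, where the difference was 0.70 (adjusted p = 0.0607). Nor did it hold with trended and robust eBayes in limma (adjusted p = 0.0704) or with the scanner's LogRatio (0.0893). It did hold without the 5 arrays with muscle, pancreas or fat transcripts (0.84, adjusted p = 0.0301). A second Ugt1a6 probe gave 0.50. Members of the Ugt1a family share their last exons, and the probes were not placed on the transcripts here, so family members cannot be told apart.

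The promoters of these genes are shown because the receptor acts through a short DNA core, GCGTG, read on both strands. A RefSeq promoter window of 300 bases (build GRCr8) was at hand for 5 of the 8 transcripts, and none for Cyp1a1. Of the 5, 2 held the core, Ugt1a6 at 133 and Cyp2b2 at 103 bases before the start site, where 29.7% of 33469 rat promoters of that length hold it. The antioxidant response element TGACNNNGC, the core bound by NRF2, was found on either strand in 1 of the 5, Ceacam4, and in 12.1% of all promoters. Over both sequences the windows of Ugt1a6, Cyp2b2 and Ceacam4 held 1 match each and that of Cyp1a2 held 0, so no overlap of matches was possible. A match is a run of letters and not a site in use. The windows of Ugt1a6 (chr9:96194768-96195067, plus strand) and Cyp1a2 (chr8:66978100-66978399, minus strand) are given 5′ to 3′, with GCGTG in capitals where present.
Ugt1a6: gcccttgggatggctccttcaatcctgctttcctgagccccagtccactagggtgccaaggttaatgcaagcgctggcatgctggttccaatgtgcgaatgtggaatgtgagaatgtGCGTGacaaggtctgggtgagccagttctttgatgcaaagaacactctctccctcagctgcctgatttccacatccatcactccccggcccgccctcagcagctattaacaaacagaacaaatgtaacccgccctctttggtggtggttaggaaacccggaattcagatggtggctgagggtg
Cyp1a2: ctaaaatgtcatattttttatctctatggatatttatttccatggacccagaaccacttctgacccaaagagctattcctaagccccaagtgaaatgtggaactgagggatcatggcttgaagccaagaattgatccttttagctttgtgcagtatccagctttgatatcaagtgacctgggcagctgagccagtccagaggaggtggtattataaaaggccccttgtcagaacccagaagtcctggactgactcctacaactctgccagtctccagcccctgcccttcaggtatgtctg
The Ugt1a6 window holds 1 core and the Cyp1a2 window none within these 300 bases, although both transcripts rose.

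Cyp2b2 and Cyp2c6v1, genes of the phenobarbital-like response, were higher in M and 0.5M than in AhR. Cyp2b2 (NM_001198676), the P450 by which activation of CAR is usually read, had log2 ratios of 3.26, 1.82, 2.65 and 2.63 in M, and 1.62, 1.35, 1.16 and 1.08 in 0.5M. The values of AhR were -0.57, -0.07, -0.23 and -0.35, against -0.69, -0.35, -0.60 and -0.62 in C. All M and 0.5M arrays stood above C, and AhR arrays overlapped C. In all, 11 of 12 exposed arrays exceeded the highest C array. The joint difference was 1.76 ± 0.18 (3.39-fold, adjusted p = 2.63e-04, limma), but it averaged 3.16 in M, 1.87 in 0.5M and 0.26 ± 0.22 in AhR, and the 3 differed (F-test of limma, adjusted p = 1.96e-05). It was 1.75 on slide 1 and 1.77 on slide 2. A second probe gave 1.08, and the near-identical Cyp2b1 may share these signals.

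Cyp2c6v1 (NM_001013904), another P450 that phenobarbital raises, had log2 ratios of 1.14, 0.74, 1.00 and 0.65 in M, and 0.25, 0.03, 0.20 and -0.42 in 0.5M. AhR arrays stood at -1.34, -0.82, -0.94 and -1.27, against -0.99, -1.23, -0.59 and -1.11 in C. All M and 0.5M arrays lay above C, and AhR overlapped C with 2 arrays below its lowest. Its joint difference of 0.91 ± 0.14 (1.88-fold, adjusted p = 0.0154, limma) is therefore no change common to the 3 exposures, with 1.86 in M, 0.99 in 0.5M and -0.11 ± 0.17 in AhR (F-test, adjusted p = 9.03e-05). M exceeded AhR by 1.97 (adjusted p = 1.95e-05) and 0.5M exceeded AhR by 1.11 (adjusted p = 0.0457), and for Cyp2b2 these differences were 2.90 (8.31e-06) and 1.61 (0.0227). The call did not hold without C 1 (adjusted p = 0.1004), C 2 (0.108) or C 4 (0.171), nor without M 1 and AhR 2 (0.85, adjusted p = 0.0534).

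The other 3 transcripts past the threshold ran the same way. Ceacam4 (NM_173339), of a family of cell adhesion molecules, had log2 ratios of 2.11, 1.33, 2.55 and 2.32 in M, and 0.34, 0.10, 0.15 and 0.15 in 0.5M. AhR livers had -0.02, -0.13, -0.14 and -0.12, against -0.22, -0.27, -0.53 and -0.27 in C, where it stood well above background on 3 of 4 arrays. All 12 exposed arrays lay above all C arrays, by far in M and narrowly in AhR. The joint difference was 1.04 ± 0.15 (adjusted p = 9.11e-03, limma), with 2.40 in M, 0.51 in 0.5M and 0.22 in AhR (F-test, adjusted p = 1.96e-05). M exceeded 0.5M by 1.89 ± 0.18 (adjusted p = 1.92e-04), while 0.5M and AhR differed by 0.29 ± 0.18, with a 95% interval of -0.09 to 0.67 (adjusted p = 0.646). The call did not hold without C 3 (0.0569) or C 4 (0.0551).

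Cyb5a (NM_022245), cytochrome b5, which passes electrons to P450 enzymes, had log2 ratios of 0.71, 0.62, 0.19 and 0.10 in M, and 0.48, 0.10, -0.02 and -0.35 in 0.5M. For AhR they were -0.08, 0.09, -0.53 and -0.29, against -0.47, -0.35, -0.68 and -0.54 in C. Here 11 of 12 exposed arrays exceeded the highest C array, and in all 4 groups the arrays of slide 1 lay above those of slide 2. The joint difference was 0.59 ± 0.09 (1.51-fold, adjusted p = 9.11e-03, limma), 0.73 on slide 1 and 0.46 on slide 2. It was 0.91 in M, 0.56 in 0.5M and 0.31 in AhR (F-test, adjusted p = 0.0700). The call did not hold without C 1 (adjusted p = 0.0951), C 2 (0.0853) or C 3 (0.0569), without the slide term (0.394), or without the 5 arrays with other tissue (0.57, adjusted p = 0.0715).

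XR_086356 had log2 ratios of 0.72, 0.91, 1.13 and 0.76 in M, and 0.12, -0.01, 0.23 and -0.35 in 0.5M. AhR pups gave -0.32, -0.53, -0.34 and -0.65, against -0.33, -0.75, -0.66 and -0.90 in C. M lay above C on all arrays, and 8 of 12 exposed arrays exceeded the highest C array. The joint difference was 0.80 ± 0.12 (adjusted p = 9.11e-03, limma), with 1.54 in M, 0.66 in 0.5M and 0.20 in AhR (F-test, adjusted p = 4.69e-04). The call did not hold without C 2 (0.0853), C 3 (0.0569) or C 4 (0.108).

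**Figure D2:**
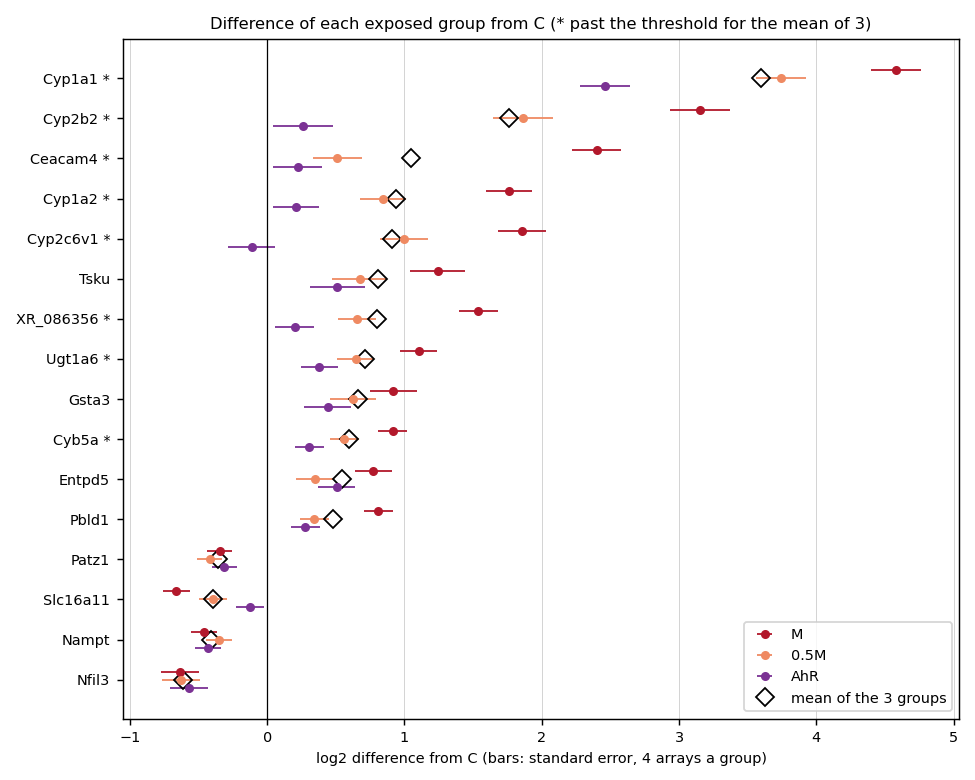
Difference from C on the log2 scale in M, 0.5M and AhR (filled points with standard errors, 4 arrays a group) and the mean of the 3 (open diamond), for the 8 transcripts past the threshold (starred) and the genes next in order of p. The points run from M down to AhR for the 8 starred transcripts, whereas the 3 points of Nfil3 (-0.64, -0.63 and -0.57), Nampt and Patz1 lie close together.

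Differences among the exposed groups were found for 14 transcripts (0.106%) by the F-test, and for 6 of the 8 above. To see whether 1 exposure carried the joint result, each group was left out in turn. Without M, 1 transcript was past the threshold (0.00761%), Cyp1a1, at 3.102 above C (adjusted p = 2.76e-08). Without 0.5M there were 9 (0.0685%), the 8 and Pbld1. Without AhR there were 25 (0.19%), 22 higher (0.167%) and 3 lower (0.0228%), all 8 among them, and the 3 lower were Nfil3, Slc16a11 and Cyp17a1, a P450 of steroid synthesis. Leaving out M took Cyp2b2 to 1.06 (adjusted p = 0.274), Ugt1a6 to 0.51 (0.804) and Cyb5a to 0.43 (0.503), each on the same side of C.

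**Figure D3:**
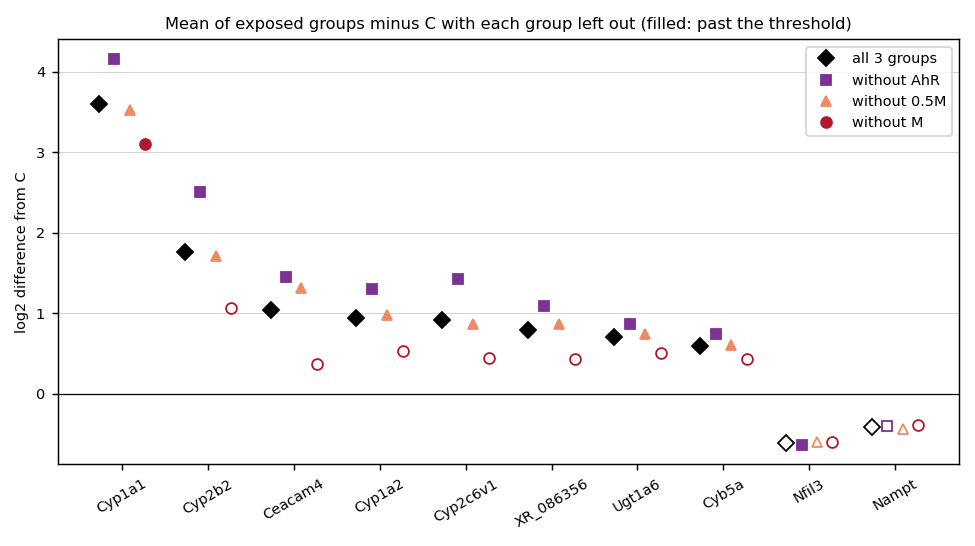
Joint log2 difference from C over all 3 exposed groups and with each group left out, for the 8 transcripts past the threshold and Nfil3 and Nampt; filled symbols are past the threshold of 0.05. Without M only Cyp1a1 (3.102) is filled.

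Among genes that did not pass, Nfil3 and Nampt had nearly equal values in the 3 exposures. Nfil3 (NM_053727), a repressor that opposes the clock output factors of the PAR bZIP family, had log2 ratios of -0.16, -0.53, 0.25 and 0.06 in M, and -0.13, 0.02, 0.13 and -0.36 in 0.5M. Values in AhR were -0.17, -0.28, 0.02 and 0.32, against 0.46, 0.21, 0.77 and 0.73 in C. Of 12 exposed arrays 10 lay below the lowest C array, and the groups overlapped through 1 array of M and 1 of AhR. The joint difference was -0.61 ± 0.11, with -0.64 in M, -0.63 in 0.5M and -0.57 in AhR (adjusted p = 0.0750, limma; F-test among groups 0.964). M minus AhR was -0.07, with a 95% interval of -0.36 to 0.22. With 1 array left out, the adjusted p reached up to 0.406. It was under 0.05 only without 0.5M 4 (0.0153) or 0.5M 2 (0.0358). It was 9.50e-03 without M 2 and 0.5M 4, the arrays with muscle transcripts, and 0.0372 without the 5 arrays, at joint differences of -0.53 and -0.58.

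Nampt (NM_177928), the rate-limiting enzyme of the salvage of NAD from nicotinamide, had log2 ratios of -0.32, -0.65, -0.74 and -0.72 in M, and -0.51, -0.48, -0.59 and -0.43 in 0.5M. The AhR livers had -0.41, -0.57, -0.56 and -0.77, against -0.08, -0.25, -0.06 and -0.22 in C. Every exposed array lay below the lowest C array. The joint difference was -0.41 ± 0.08, with -0.46 in M, -0.35 in 0.5M and -0.43 in AhR (adjusted p = 0.0852, limma; F-test 0.843), and it was -0.32 on slide 1 and -0.50 on slide 2. With 1 array left out, the adjusted p reached up to 0.406 and was under 0.05 only without M 1 (0.0198). It was 0.0493 without M 1 and AhR 2, and 0.0496 without the 5 arrays.

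Pbld1, a protein with a phenazine biosynthesis-like domain, was 0.48 ± 0.09 above C and above the highest C array on 11 of 12 exposed arrays (adjusted p = 0.0665, limma). By group it was 0.81 in M, 0.34 in 0.5M and 0.28 in AhR. M exceeded AhR by 0.53 (adjusted p = 0.0465, limma), while the F-test did not pass (0.0951). With 1 array left out the adjusted p of the joint difference reached up to 0.418. It was under 0.05 only without 0.5M 2 (0.0126) or 0.5M 3 (0.0416). Tsku, a secreted leucine-rich proteoglycan of liver, differed by 0.81 ± 0.16 (adjusted p = 0.145), with 1.24 in M, 0.67 in 0.5M and 0.51 in AhR. Entpd5, a nucleotide-hydrolysing enzyme of the endoplasmic reticulum, differed by 0.54 ± 0.11 (0.161). Its adjusted p with 1 array left out reached up to 0.693 and was under 0.05 only without M 2 (0.0264). Without the 5 arrays with other tissue Entpd5 was past the threshold at 0.69 (adjusted p = 0.0372). The glutathione transferase Gsta3 differed by 0.66 ± 0.14 (0.170), but by 0.42 without C 1, which stood at -1.52 where the other C arrays had -0.88 to -0.53. Slc16a11, a carrier of the monocarboxylate family, differed by -0.39 ± 0.08 (0.167), with -0.66 in M, -0.39 in 0.5M and -0.12 in AhR. Its M minus AhR was -0.54 (adjusted p = 0.0366, limma), while the F-test did not pass (0.106). The zinc finger factor Patz1 differed by -0.36 ± 0.07 (0.167). A second Patz1 probe was not above background on any array.

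A common direction can also be read array by array, as all 12 exposed arrays on one side of all 4 C arrays. That held for 14 transcripts (0.106%), 10 above C (0.0761%) and 4 below it (0.0304%), and 12 of the 14 had a gene symbol. The count is a description with no test of its own. A random order of 12 and 4 arrays would put about as many transcripts in this set, so a place in it does not show a change. Of the 14, 3 also passed the joint test (Cyp1a1, Ceacam4 and Ugt1a6) and 2 differed among the exposed groups. Above C were also Ftl1 (ferritin light chain), Lgals8 (galectin 8), Ugdh, Ift46 (intraflagellar transport) and the membrane protein Tmem132a. Ugdh makes the UDP-glucuronic acid that Ugt1a6 uses. Below C were Nampt, Patz1, Ostm1, which pairs with a lysosomal chloride transporter, and Pcyt1a, a rate-limiting enzyme of phosphatidylcholine synthesis.

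For the members of this set that did not pass the joint test, the sizes were small beside that of Cyp1a1. Ugdh ranged over the exposed arrays from -0.80 through a median of -0.60 to -0.39, against -0.94 to -0.86 in C. Its joint difference was 0.30 ± 0.07, with 0.39 in M, 0.26 in 0.5M and 0.27 in AhR (adjusted p = 0.293, limma). Lgals8 ranged from -0.60 through -0.47 to -0.17 in exposed livers, against -0.91 to -0.65 in C, a difference of 0.32 ± 0.08 (adjusted p = 0.349). For both genes the gap to C was smaller than the range over the exposed arrays. Ftl1 ranged from -0.47 through -0.34 to 0.63 in exposed livers, against -0.73 to -0.50 in C (0.41 ± 0.16, adjusted p = 0.716), and its highest values came from M 1 and AhR 1. These arrays had the fewest probes well above background (7082 and 8828), and the part of this in the Ftl1 values was not tested. Ift46, above background on 1 of 4 C arrays, differed by 0.27 ± 0.08 (0.631). Pcyt1a, above background on 2 of 4 C arrays, differed by -0.10 ± 0.06 (0.852). Tmem132a differed by 0.18 ± 0.06 and Ostm1 by -0.30 ± 0.09 (adjusted p = 0.631 for each), and a second Ostm1 probe gave -0.11.

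**Figure D4:**
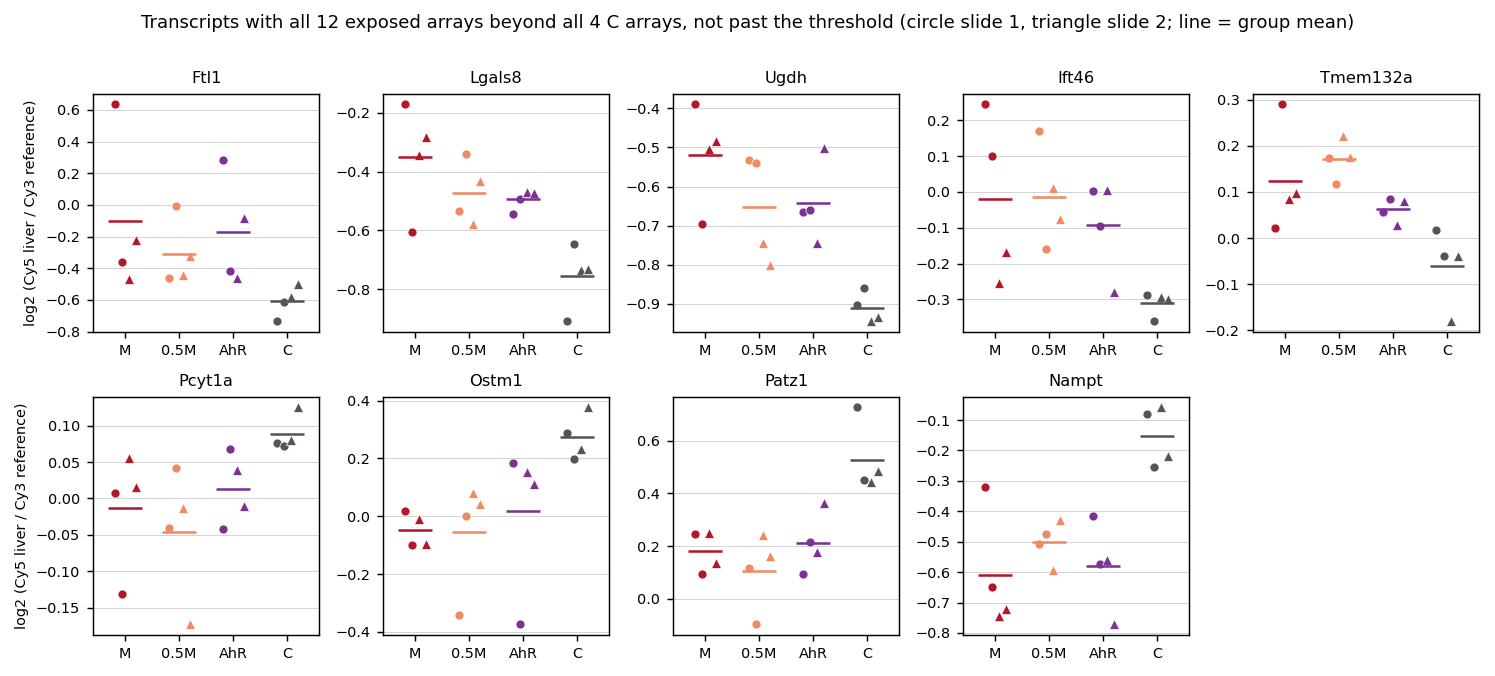
Log2 ratio of liver to reference on each array for the 9 genes whose 12 exposed arrays all lie beyond all 4 C arrays without passing the joint test; M, 0.5M, AhR and C with 4 arrays each, line at the group mean, circles slide 1, triangles slide 2. For Ugdh and Lgals8 the C arrays sit lowest, and for Nampt and Patz1 highest, while the 3 exposed groups overlap each other.

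The gene lists were read by counts and medians beside all transcripts, whose median joint difference was -0.0014, with 8 of 13146 past the threshold. Of all 13146 transcripts, 6484 lay above C in value. Among 11 measured targets of this receptor, the aryl hydrocarbon receptor, 3 were past it and higher (Cyp1a1, Cyp1a2 and Ugt1a6) and 10 were above C in value. Their median was 0.27, with 0.53 in M, 0.17 in 0.5M and 0.16 in AhR. Nqo1, a quinone reductase, differed by 0.51 ± 0.16, with 0.89 in M, 0.48 in 0.5M and 0.15 in AhR (adjusted p = 0.631, limma). Cyp1b1, another P450 of this receptor, was well above background on 3 arrays of M and 1 of 0.5M, and on none of AhR or C. It was kept for testing only through these 4 arrays, so most of its values lie near background. Its mean log2 Cy5 signal was 6.35 in exposed livers and 6.07 in C. The differences from C were 0.77 in M, 0.17 in 0.5M and -0.13 in AhR, and 0.27 ± 0.13 jointly (adjusted p = 0.813, limma). Cyp1b1 ranged from -0.23 through 0.06 to 1.13 in exposed livers, against -0.22 to 0.12 in C, and the 3 highest arrays were of M. Xdh, xanthine dehydrogenase, was the member below C (-0.12 ± 0.08).

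Of 19 measured targets of CAR and PXR, 2 were past the threshold and higher (Cyp2b2 and Cyp2c6v1), 16 were above C in value and the median was 0.37. By group the median was 0.61 in M, 0.37 in 0.5M and 0.07 in AhR. Aldh1a1, which oxidises retinal, differed by 1.03 ± 0.23, with 1.84 in M, 0.87 in 0.5M and 0.37 in AhR (adjusted p = 0.225, limma). The epoxide hydrolase Ephx1 differed by 0.80 ± 0.22 (0.563), the bile pigment exporter Abcc2 by 0.38 ± 0.09 (0.318) and Cyp3a23-3a1 by 0.54 ± 0.14 (0.475). The members below C were Cyp3a18 (-0.29 ± 0.18), Cyp3a2 (-0.14 ± 0.11) and Cyp2b3 (-0.07 ± 0.12). Por, the reductase that feeds electrons to P450 enzymes, was at 0.0016 ± 0.15. Cyp2c7, more abundant in female than in male rat liver, differed by 0.76 ± 0.16 (adjusted p = 0.197), with 1.91 in M, 0.32 in 0.5M and 0.05 in AhR (F-test, adjusted p = 3.35e-04).

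Of 20 measured NRF2 targets, 0 passed (7 at an unadjusted p under 0.05), 19 lay above C in value and the median was 0.24. The members next to Gsta3 were Me1, malic enzyme (0.72 ± 0.18, adjusted p = 0.432), Ephx1, also in the list above, and Gsta4 (0.35 ± 0.10, 0.631). The median was 0.33 in M, 0.24 in 0.5M and 0.11 in AhR. Hmox1, heme oxygenase, stood at 0.06 ± 0.09.

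**Figure D5:**
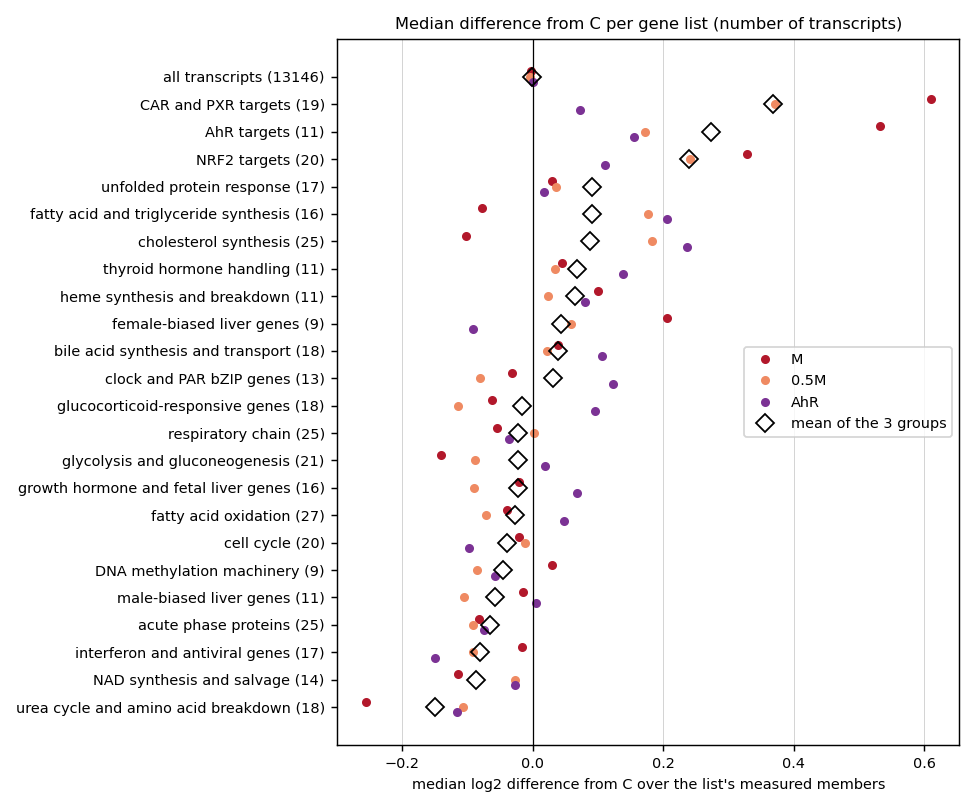
Median log2 difference from C over the measured members of each functional list (number in brackets) in M, 0.5M and AhR (filled points) and for the mean of the 3 groups (open diamond), with all transcripts on top. The CAR and PXR, AhR and NRF2 lists have medians of 0.37, 0.27 and 0.24, and the urea cycle list has -0.15.

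In none of the other lists of liver functions was a member past the threshold, apart from Ugt1a6, which also stands in the list of thyroid hormone handling (1 of 11, median 0.07). The urea cycle and amino acid breakdown list had 1 of 18 members above C and a median of -0.15, -0.02 on slide 1 and -0.27 on slide 2. Its lowest p was that of the aspartate aminotransferase Got1 (-0.40 ± 0.16, adjusted p = 0.723, limma), and Ass1, argininosuccinate synthase, differed by -0.28 ± 0.13 (0.806). Of 11 periportal hepatocyte markers, several of which (Ass1 among them) stand in this list too, 2 lay above C (median -0.11, with -0.25 in M, 0.01 in 0.5M and -0.06 in AhR), and their part in the values of this list was not tested. Of 25 genes of cholesterol synthesis, 23 lay above C in value with a median of 0.09, but the median was -0.10 in M, 0.18 in 0.5M and 0.24 in AhR, and -0.07 on slide 1 and 0.26 on slide 2. Msmo1, a sterol oxidase, differed by 0.44 ± 0.18 (0.743), and by 0.26 without C 1, 0.28 without C 4 and 0.67 without C 2. Of 14 genes of NAD synthesis and salvage 4 lay above C (median -0.09), with the nicotinate enzyme Naprt at -0.20 ± 0.08 next to Nampt in the same direction and Nadk, the NAD kinase, at 0.24 ± 0.08 in the other. Of 13 clock and PAR bZIP genes 8 lay above C (median 0.03). Within it Cry1, a repressor of the clock, was at -0.44 ± 0.12 (0.623) and Dbp, a PAR bZIP activator opposed by Nfil3, at 0.78 ± 0.33 (0.775).

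The lists of cell types bear on how far tissue composition moved with exposure. In bulk RNA, fewer cells of a type and less RNA per cell cannot be told apart. Of 11 measured hepatocyte markers 4 lay above C (median -0.03), and the medians were 0.03 for 12 markers of Kupffer cells and macrophages and 0.02 for 5 of endothelial cells. The medians were -0.01 for 7 erythroid, -0.02 for 6 lymphocyte and 0.02 for 4 cholangiocyte markers. All 3 neutrophil markers measured lay below C (median -0.24). Of 11 stellate cell and fibroblast markers 9 lay above C (median 0.17, with 0.40 in M), and the median was 0.02 without M 2 and 0.5M 4. None of these markers passed. Of 11 pericentral markers 9 were measured, and 1 of these, Cyp1a2, passed (median -0.16). The 11 of 26 skeletal muscle markers that were measured all lay above C, with a median of 1.01 that was 0.13 without M 2 and 0.5M 4. Their mean log2 ratio ranged from -2.06 to 3.14 in M, from -1.88 to 3.37 in 0.5M and from -2.14 to -1.09 in AhR, against -2.25 to -1.39 in C. The 6 measured pancreas markers had a mean of 0.07 to 1.55 in M, -0.07 to 0.21 in 0.5M and -0.18 to 0.86 in AhR, against -0.15 to 0.05 in C, and their median difference was 0.30, and 0.05 without the 5 arrays with other tissue. For 5 fat markers it was -0.18, and 0.04 without the 5. Without the 5 arrays with other tissue, the joint test gave 13 transcripts, 10 higher and 3 lower, 7 of the 8 among them, and Cyb5a was the transcript lost. The joint differences of the 7 were then 3.57 for Cyp1a1, 1.85 for Cyp2b2, 1.19 for Ceacam4, 0.84 for Ugt1a6, 0.83 for XR_086356, 0.83 for Cyp2c6v1 and 0.79 for Cyp1a2.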

How the data were processed

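Liver RNA was measured on 16 Agilent 2-colour arrays. Per the file headers, the deposited scan files come from Agilent Feature Extraction 10.7.3.1 and give median signals and backgrounds as scanner intensity, a LogRatio column on the log10 scale, and quality marks of 0 or 1 (unit other). The value table that the authors deposited is taken as log2 Cy5 over Cy3 after it was set against the scan files (correlation across probes 0.965 to 0.991 with its own array and at most 0.882 with another, column medians -0.0093 to 0.012); its normalization is not given in the sources used here, and it served as an alternative.

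Intensities were corrected with normexp (offset 50) and loess within arrays in limma 3.58.1 (R 4.3.3, with the package data.table in version 1.17.8), control spots at weight 0. Spots marked non-uniform or population outliers were left out and spots of a probe averaged. Probes that the scanner software marked as bright (well above background) in Cy5 on 4 or more of 16 arrays were kept (14524 of 30367, less 12 with missing values), named by RefSeq transcript (18004 probes got a symbol and 12363 none), and the brightest probe per gene was used, which left 13146 transcripts, 8562 with a symbol. limma fitted a mean per group plus slide. The contrast was the mean of M, 0.5M and AhR minus C, two-sided, with Benjamini-Hochberg adjustment over all transcripts and a threshold of 0.05, and a moderated F-test compared the 3 exposed groups. The median standard error of the joint difference was 0.085, and precision is limited by the number of arrays. The code was tested on simulated data. No 2 arrays were copies (highest correlation 0.917).

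The named genes are those past the threshold, those with the 15 smallest p, those with all exposed arrays beyond C, a few fixed drug metabolism genes, the leading members of each list, and the leading genes of the F-test. The groups, the lists and this rule were chosen with earlier results of these data known. Medians of signals were used where the files hold no means. Replicate numbers were not used to pair the samples. Residuals of same-numbered arrays, which shared a slide, correlated between -0.41 and 0.19 with a median of 0.0021. For differently numbered arrays of the same slide the range was -0.46 to 0.38 with a median of -0.13. These ranges overlap, so whether the numbers pair samples is not known. The promoters are RefSeq windows of GRCr8, matched by symbol for 29 of 37 named transcripts, and no other coordinates are printed, since the arrays were annotated on another build.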

Additional observations from a re-analysis of the deposited data

Results flagged for a closer look

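For the named transcripts, 148 groups of 4 arrays were examined for an array far from the other 3, and 9 were found, where chance gives about 5% of groups. Cyp1a1 was higher on 0.5M 1 (log2 ratio 2.69) than on the other 0.5M arrays (1.85 to 1.96). Ceacam4 was high on AhR 1 (-0.024, others -0.14 to -0.12) and low on C 3 (-0.53, others -0.27 to -0.22), Ugt1a6 high on AhR 4 (0.90, others 0.65 to 0.68) and Ostm1 low on AhR 2 (-0.37, others 0.11 to 0.18). Mavs, an adaptor of antiviral signalling, was high on 0.5M 4 (0.081, others -0.13 to -0.11). In C, Patz1 was high on C 1 (0.73, others 0.44 to 0.49), Pcyt1a on C 4 (0.12, others 0.07 to 0.08) and Me1 on C 2 (-0.36, others -1.10 to -0.99), the array with fat transcripts, whose part in the Me1 value was not tested.

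The size of the change differed among M, 0.5M and AhR for 7 of the named transcripts by limma's moderated F-test. The adjusted p was 1.96e-05 for Cyp2b2, 1.96e-05 for Ceacam4, 8.67e-05 for Cyp1a1, 9.03e-05 for Cyp2c6v1, 3.35e-04 for Cyp2c7, 4.69e-04 for XR_086356 and 6.47e-04 for Cyp1a2.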

How the results depend on the processing

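The direction of no named transcript changed under the 36 alternatives, of which 35 gave a value for Ift46, Cyp1b1 and Pcyt1a, left out by the filter of 12 arrays above background. Cyp1a1 passed in all of them, at 3.102 to 4.36 above C. Against the joint count of 8, the count was 1 with median centring in place of loess, 5 with the scanner's LogRatio, 1 within slide 1, 4 within slide 2, 13 when the 5 arrays with other tissue were left out, 1 without group M and 25 without group AhR. Leaving out 1 array gave 3 to 10, with 5 without C 1, 4 without C 2, 4 without C 3 and 3 without C 4. The lower count of 0 was 1 with LogRatio, 2 with array weights, 1 with trended and robust eBayes, 1 without M 2 and 0.5M 4, 1 without M 1 and AhR 2, 3 without the 5 arrays and 3 without group AhR. It was 0 to 1 with 1 array left out, and 1 without M 1, 0.5M 2 or 0.5M 4. The count of 14 in the F-test was 0 with median centring, 9 with scale normalization, 0 within slide 1, 7 within slide 2, 27 with array weights and 23 with trended eBayes, and 9 to 18 with 1 array left out, with 9 without M 4 or AhR 4. The count of 14 with all exposed arrays beyond C was 3 with median centring, 9 with the authors' deposited value table, 9 with LogRatio and 26 with no filter. It grows as arrays are left out, by its construction, to 778 within slide 1, 775 within slide 2, 22 without M 2 and 0.5M 4, 23 without M 1 and AhR 2, 146 without the 5 arrays, 32 without group M, 39 without group 0.5M, 93 without group AhR, and 15 to 70 without 1 array (25 without AhR 3, 42 without C 1, 70 without C 2, 40 without C 3, 32 without C 4). The causes of the other changes were not tested. With the replicate number as a block in place of the slide term the counts were 9 (all 8 among them) and 13 in the F-test, although it is not known whether the numbers pair samples. With the authors' deposited value table the joint count was 8, the same 8. With trended and robust eBayes it was also 8, 7 higher and 1 lower, but only 6 of the main 8 were among them. Cyp1a2 (adjusted p = 0.0667, limma) and Ugt1a6 (0.0704) were lost. With LogRatio 4 of the main 8 passed, and XR_086356, Cyb5a, Ugt1a6 and Cyp2c6v1 did not. Over the named transcripts and alternatives, 51 values lost and 25 gained the threshold. With 4 C arrays and a median standard error of 0.085, the smallest joint difference past the threshold was 0.59, and smaller changes were not detectable at this size except with a smaller spread.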

Other observations

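Some liver genes of the other lists lay on one side of C on average in all 3 exposures without passing the threshold. Igfals, which carries IGF1 in blood, was at -1.77 through a median of -1.35 to -1.05 in exposed livers, against -1.29 to -0.53 in C, a joint difference of -0.37 ± 0.13 (adjusted p = 0.631, limma), and -0.24 without C 3. By group it was -0.44 in M, -0.31 in 0.5M and -0.37 in AhR. Nr0b2, the repressor SHP of bile acid synthesis, differed by 0.72 ± 0.22, with 0.95 in M, 0.54 in 0.5M and 0.68 in AhR (adjusted p = 0.631), and 1 C array, C 4, stood lowest of all at -2.17. Without C 4 it was 0.42, and it was 0.39 on slide 1 and 1.06 on slide 2. Thrsp, a protein of fat synthesis that thyroid hormone raises, differed by 0.61 ± 0.22, with 0.70 in M, 0.64 in 0.5M and 0.49 in AhR (adjusted p = 0.672).

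In 2 other genes the group means of M and 0.5M lay farther from C than that of AhR, while single arrays overlapped. Lbp, an acute phase protein that binds bacterial lipopolysaccharide, differed by -0.92 in M, -0.85 in 0.5M and -0.18 in AhR (joint -0.65 ± 0.19, adjusted p = 0.631, F-test 0.362), and the joint value was -0.38 without C 1. Alas1, the first enzyme of heme synthesis, differed by 1.11 in M, 0.65 in 0.5M and 0.21 in AhR (joint 0.66 ± 0.25, adjusted p = 0.698, F-test 0.466). Neither gene's difference among the 3 groups passed the F-test. Lbp was 0.44 on AhR 1 and 0.64 on C 2, inside the range of M and 0.5M (0.22 to 0.67). On the other AhR arrays it was 1.01 to 1.60. Alas1 was 0.94 on AhR 1, above M 3 (0.43), 0.5M 1 (0.24) and 0.5M 3 (0.51), and 0.0036 to 0.42 on the other AhR arrays. Its highest value was 2.22 on M 1.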
